A study of Mus musculus with 8 samples.

Results

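Reelin, its receptors and adaptor, and genes of the Cajal-Retzius cells that secrete it were examined at P1 in 4 cortex samples of control and 4 of dcKO_Nex-Cre mice. The 9 genes were taken by symbol from the 48709 Ensembl genes counted in every library. They were *Reln*, *Dab1*, *Vldlr*, *Lrp8*, *Trp73*, *Lhx1*, *Lhx5*, *Calb2* and *Ndnf*, and all 9 were found and passed the filter on low counts. The mutants carry floxed alleles of BAF155 (*Smarcc1*) and BAF170 (*Smarcc2*), which encode scaffold subunits of the BAF chromatin remodeling complex, and Nex-Cre, which is driven from the *Neurod6* locus in postmitotic principal neurons. Interneurons, glia and other cells without a history of this Cre keep both genes. The control animals were Cre-negative BAF155fl/+, BAF170fl/+ heterozygotes, and both groups were on a C57BL6/J background. The sample labels name the groups only as control and mutant, so that the alleles and the Cre line are taken from the paper. Total RNA of whole tissue was sequenced, with 1 library per sample.

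Reelin is a large glycoprotein of the extracellular matrix, secreted at first mainly by Cajal-Retzius cells beneath the pia and later also by interneurons. It binds the lipoprotein receptors VLDLR and ApoER2 (*Lrp8*) on migrating neurons, upon which the adaptor DAB1 is phosphorylated by Src family kinases and then degraded. Radially migrating neurons need this signal to detach and to settle in the inside-out order of the cortical layers, and mice without reelin, without DAB1 or without both receptors show inverted layers.

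Total counts ranged from 17958641 to 35191912 per library. *Smarcc2* fell to 56.9% of the control level (462 ± 25.8 to 263 ± 26.03 CPM, the counts after scaling by edgeR for library size, SD, n = 4 and 4) and *Smarcc1* to 69.2%, with adjusted p = 0.00267 and 0.0348 from edgeR's quasi-likelihood test. Neither gene overlapped between the groups, and the call of *Smarcc1* held under 8 of 17 alternatives. Over all 16287 genes tested, 144 passed an adjusted p of 0.05, which is 0.884%, with 83 lower (0.510%) and 61 higher (0.375%) in the dcKO_Nex-Cre cortex. The median log2 fold change of all genes tested was 0.00. By the tags in their file names, all controls and mutant replicates 1 and 2 were run on lane 2 and mutant replicates 3 and 4 on lane 8, where there was no control. Mitochondrial genes took 6.87% of the counts in control replicate 2 and 6.15% in dcKO_Nex-Cre replicate 4, against 2.33% to 4.24% in the other 6 libraries. These libraries also had the largest share of ribosomal protein genes, 1.52% and 1.42% against 0.961% to 1.09%. The labels do not say that the libraries came from separate animals, so that the p-values measure the spread between these samples. In bulk tissue, fewer cells of a type and less RNA per cell cannot be told apart.

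The promoters of 4 of the 9 genes are shown, 3 of genes that were highest in the same library of each group (*Reln*, *Trp73* and *Lhx1*) and, for comparison, that of *Vldlr*, the steadiest of the 9. The sequences are those of RefSeq on GRCm38.p6, which held a start for 6 of the 9 genes and not for *Lhx5*, *Calb2* and *Ndnf*. It gave 2 starts for *Vldlr*, of which the upstream one is shown. Each line gives up to 250 bases directly upstream of a transcription start, 5′ to 3′ on the strand of the gene. Capitals mark an E-box, CANNTG, the core bound by basic helix-loop-helix factors such as those of the Neurod family, or TAATTA, a core bound by LIM homeodomain factors such as LHX1 and LHX5. Both motifs read the same on either strand and do not overlap here.
Reln, chr5:22344706-22344955, minus strand: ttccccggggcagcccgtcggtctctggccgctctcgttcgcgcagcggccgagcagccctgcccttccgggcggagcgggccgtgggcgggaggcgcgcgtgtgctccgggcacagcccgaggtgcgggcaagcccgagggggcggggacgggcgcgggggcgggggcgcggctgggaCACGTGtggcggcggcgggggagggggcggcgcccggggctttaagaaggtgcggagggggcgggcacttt
Trp73, internal start, chr4:154097174-154097423, minus strand: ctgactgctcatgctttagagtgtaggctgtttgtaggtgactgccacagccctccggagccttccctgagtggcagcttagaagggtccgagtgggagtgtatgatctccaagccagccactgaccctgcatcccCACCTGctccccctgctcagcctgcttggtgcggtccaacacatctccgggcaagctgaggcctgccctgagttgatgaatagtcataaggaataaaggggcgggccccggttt
Lhx1, chr11:84525536-84525784, minus strand: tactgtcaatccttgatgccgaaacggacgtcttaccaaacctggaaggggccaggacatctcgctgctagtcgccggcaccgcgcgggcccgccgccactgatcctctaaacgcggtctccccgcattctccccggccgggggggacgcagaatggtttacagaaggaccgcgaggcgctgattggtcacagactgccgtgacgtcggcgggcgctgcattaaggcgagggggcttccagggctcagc
Vldlr, chr19:27216234-27216483, plus strand: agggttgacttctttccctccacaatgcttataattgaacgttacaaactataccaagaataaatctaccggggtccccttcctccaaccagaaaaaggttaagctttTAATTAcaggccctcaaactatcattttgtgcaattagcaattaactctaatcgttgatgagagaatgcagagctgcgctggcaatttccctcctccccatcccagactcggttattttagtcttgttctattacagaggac
The *Reln* window held 37 CpG dinucleotides and 80.0% G or C, and 97.8% of the 32851 promoter windows in the table held fewer CpG. The *Lhx1* window held 26 CpG, *Trp73* 6 and *Vldlr* 5, against a median of 6. The window of the second *Vldlr* start, which partly covers exon sequence of the first, held 18 CpG, 3 E-boxes and no TAATTA. An E-box was present in the windows of *Reln* and *Trp73*, as in 66.2% of all windows, and TAATTA in the *Vldlr* window shown, as in 4.84%. Neither motif was in the windows of *Reln*, *Trp73* and *Lhx1* alike, and a match or its absence describes only the letters of these windows.

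None of the 9 genes passed the test between the control and the dcKO_Nex-Cre cortex with all 8 libraries in the fit, and *Calb2* alone passed, as higher, in 1 of 17 alternatives. None passed the adjusted threshold in edgeR, with DESeq2 (where 2.66% of all genes passed), with limma-voom or with the lane tag as a covariate (0.319%). With all 8 libraries and no covariate, none reached an unadjusted p of 0.05 in edgeR or DESeq2, which 13.6% of all genes did in edgeR. Over the 17 alternatives, the lowest unadjusted p from edgeR was 0.0438 for *Lhx1*, 0.0173 for *Lhx5* and 0.000982 for *Calb2*. No other gene of the 9 reached 0.05 in any alternative. The values of the groups overlapped for all 9. Over all genes tested, 4.01% had every mutant library below every control and 3.99% every mutant library above. How closely a difference was bounded varied from gene to gene. The 95% intervals of *Vldlr*, *Lrp8* and *Dab1* lay within 86.6% and 123% of the control level, while those of *Reln*, *Trp73*, *Lhx1*, *Lhx5* and *Ndnf* reached from 52.4% to 131%. For each of the latter 5, the lower bound was at 67.8% of the control level or below. The interval of *Calb2* reached from 87.6% to 136%, the highest upper bound of the 9.

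**Figure D1:**
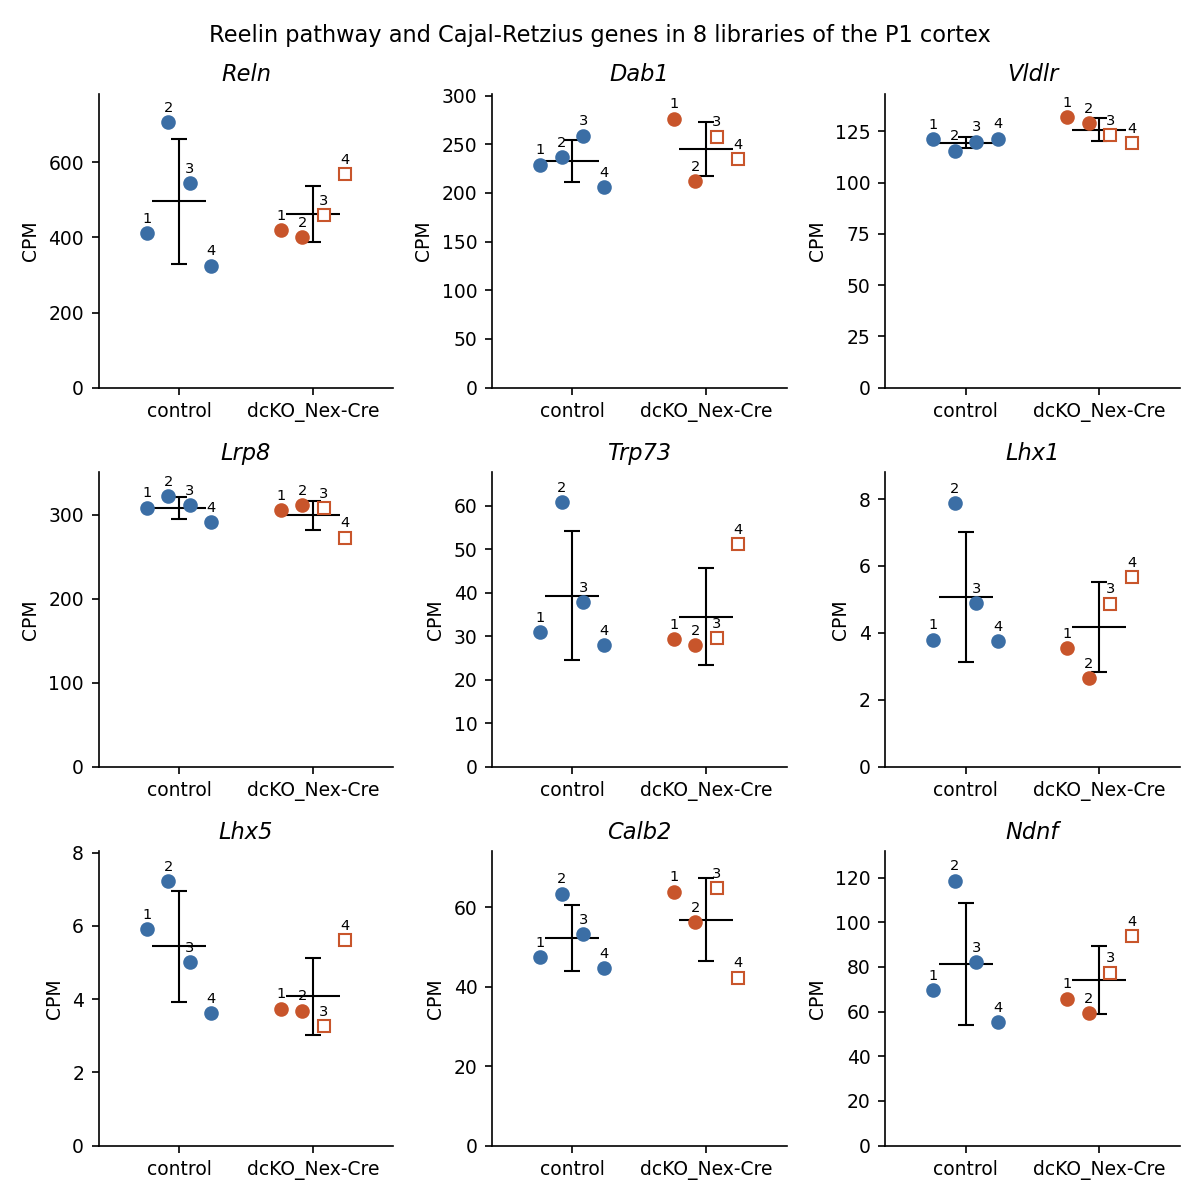
CPM of the 9 genes in each library, with the replicate number beside each point and the mean and SD of each group (n = 4) in black. Circles are lane tag 2 and open squares lane tag 8. The groups overlap in every panel, and control 2 and dcKO_Nex-Cre 4 are the highest libraries of their group for Reln, Trp73, Lhx1, Lhx5 and Ndnf.

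The ligand *Reln* (ENSMUSG00000042453, chromosome 5 of GRCm38, 21884454 to 22344702) was at 411, 706, 545 and 325 CPM in control replicates 1 to 4 and at 419, 401, 460.04 and 568 CPM in dcKO_Nex-Cre replicates 1 to 4. All 4 mutant libraries thus lay between the lowest and the highest control. The means were 497 ± 167 and 462 ± 75.1 CPM (SD, n = 4 each), a log2 fold change of -0.11 (standard error 0.21, 95% interval -0.56 to 0.35, adjusted p = 0.847 from edgeR, exact permutation p = 0.743). The controls differed among themselves by 2.18-fold, far more than the groups did. Without control replicate 2 the log2 fold change of *Reln* was 0.12, and within lane tag 2 it was -0.28, neither of which passed the test.

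The receptors were the steadiest genes of the set. *Vldlr* (ENSMUSG00000024924, chromosome 19, 27216484 to 27254231) was at 121, 116, 119.9 and 121 CPM in the control libraries and at 132, 129, 123 and 119 CPM in the mutant libraries. Of the mutants, only dcKO_Nex-Cre replicate 4 lay below any control, and the log2 fold change came to 0.07 (standard error 0.06, 95% interval -0.06 to 0.21, adjusted p = 0.615 from edgeR, exact permutation p = 0.143). *Lrp8*, which encodes ApoER2 (ENSMUSG00000028613, chromosome 4, 107802261 to 107876840), was at 308, 322, 311 and 291 CPM in the control and at 305, 311, 308 and 273 CPM in the dcKO_Nex-Cre cortex. Here dcKO_Nex-Cre replicate 4 was the lowest of all libraries, and the log2 fold change came to -0.04 (standard error 0.08, 95% interval -0.21 to 0.12, adjusted p = 0.829 from edgeR), which became 0.00 without that library. The ratio of *Vldlr* to *Lrp8* counts ranged from 0.359 to 0.437 over the 8 libraries.

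The adaptor *Dab1* (ENSMUSG00000028519, chromosome 4, 103619359 to 104744844), which relays the signal inside the neuron, was at 229, 237, 259 and 206 CPM in the control and at 276, 212, 258 and 235 CPM in the mutant libraries. Its means were 233 ± 21.7 and 245 ± 27.9 CPM (SD, n = 4 each), or 105% of the control. The log2 fold change came to 0.08 (standard error 0.10, 95% interval -0.15 to 0.30, adjusted p = 0.762 from edgeR, exact permutation p = 0.486). Its highest and its lowest mutant library, replicates 1 and 2, came from the same lane tag.

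Among the transcription factors of Cajal-Retzius cells, *Trp73* (ENSMUSG00000029026, chromosome 4, 154056253 to 154140208), a p53 family member needed for these cells to survive, was at 30.9, 60.8, 37.8 and 28.0 CPM in the control and at 29.4, 28.0, 29.6 and 51.2 CPM in the dcKO_Nex-Cre cortex. A single library of each group stood far above the other 3. The log2 fold change of *Trp73* came to -0.19 (standard error 0.26, 95% interval -0.77 to 0.38, adjusted p = 0.767 from edgeR). It was -0.43 without dcKO_Nex-Cre replicate 4 and 0.10 without control replicate 2, and neither value passed the test.

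The LIM homeodomain gene *Lhx1* (ENSMUSG00000018698, chromosome 11, 84518284 to 84525535) had 105 counts per library on average, and its levels were 3.80, 7.88, 4.88 and 3.74 CPM in the control and 3.54, 2.64, 4.87 and 5.67 CPM in the mutants. The log2 fold change came to -0.29 (standard error 0.29, adjusted p = 0.678 from edgeR), and it was 0.0057 without control replicate 2. Within lane tag 2, where the mutants are the 2 lowest libraries of *Lhx1*, it was -0.70, with an adjusted p of 0.216 from edgeR. Its relative *Lhx5* (ENSMUSG00000029595, chromosome 5, 120431699 to 120441223), a LIM homeodomain factor of the same cells, had 108 counts on average and was at 5.91, 7.22, 5.01 and 3.61 CPM in the control and at 3.74, 3.68, 3.26 and 5.61 CPM in the dcKO_Nex-Cre cortex. *Lhx5* had the largest difference of the 9, with 3 mutant libraries below 3 of the controls and a mean of 74.9% of the control. On the log2 scale the fold change was -0.42 (standard error 0.23, 95% interval -0.93 to 0.09, adjusted p = 0.444 from edgeR, exact permutation p = 0.229). It was below 0 under all 17 alternatives, from -0.60 to -0.25, with adjusted p-values of 0.102 to 0.714. The exons of *Lhx5* share 69 bases with the antisense gene *Gm27199*, which had 30.6 counts on average, and with this kit reads of overlapping genes on opposite strands cannot be told apart.

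*Ndnf* (ENSMUSG00000049001, chromosome 6, 65671590 to 65712326), a secreted factor that marks Cajal-Retzius cells and interneurons of the outermost layer, was at 69.5, 119, 81.99 and 55.2 CPM in the control and at 65.7, 59.3, 77.4 and 93.7 CPM in the mutants. Its order of libraries was close to that of *Reln*, and the log2 fold change came to -0.14 (standard error 0.21, 95% interval -0.61 to 0.34, adjusted p = 0.806 from edgeR). Without control replicate 2 that of *Ndnf* was 0.11, which did not pass the test. *Calb2* (ENSMUSG00000003657, chromosome 8, 110137502 to 110168210) encodes calretinin, a calcium-binding protein of Cajal-Retzius cells and of some interneurons. It was at 47.4, 63.4, 53.2 and 44.6 CPM in the control and at 63.9, 56.3, 64.8 and 42.2 CPM in the mutants, so that dcKO_Nex-Cre replicate 4 was the lowest library and the other 3 mutants were above all controls other than replicate 2. The log2 fold change of *Calb2* came to 0.13 (standard error 0.15, adjusted p = 0.718 from edgeR). With control replicate 2 and dcKO_Nex-Cre replicate 4 both left out, a choice made after seeing the data, it was 0.35 (standard error 0.08) and passed the test with an adjusted p of 0.0199, while 5.49% of all genes passed as higher and 5.50% as lower in that fit.

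**Figure D2:**
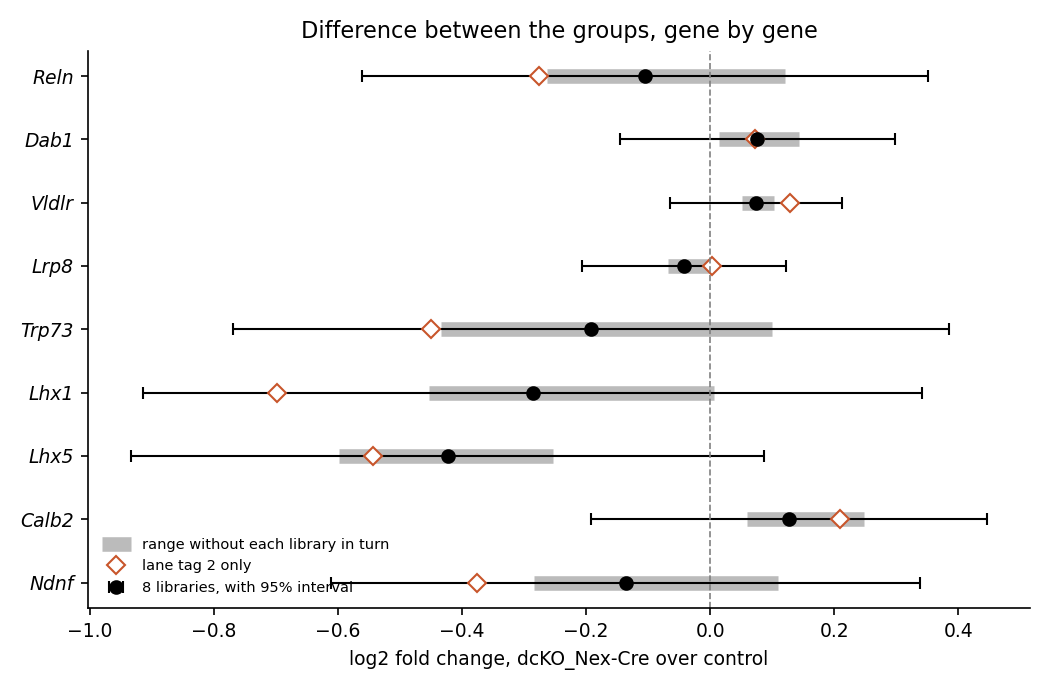
Log2 fold change of each gene, dcKO_Nex-Cre over control (x axis), with its 95% interval from edgeR over 8 libraries (black). Grey bars span the values with each library left out in turn and open diamonds give the fit of lane tag 2 only. Every interval includes 0, the intervals of Dab1, Vldlr and Lrp8 are the narrowest, and the grey bars of Reln, Trp73, Lhx1, Lrp8 and Ndnf cross 0.

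Per kilobase of exon, where levels may be compared between genes, *Calb2* (31.3 RPKM, mean of 8 libraries), *Dab1* (30.2 RPKM) and *Lrp8* (28.9 RPKM) stood highest and could not be ordered, since their libraries overlapped. *Reln* had a lower mean of 20.2 RPKM, but its highest library (29.8 RPKM) overlapped with the libraries of these genes. Its lowest library (13.7 RPKM) was above the highest of *Vldlr* (13.1 RPKM). *Vldlr* (12.2 RPKM), *Ndnf* (7.68 RPKM) and *Trp73* (6.68 RPKM) overlapped with their neighbours, and *Lhx5* (1.77 RPKM) and *Lhx1* (1.14 RPKM) lay apart below them. These levels rest on the length of all annotated exons of a gene, whichever isoform was present.

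The 9 genes differed in how much they varied within a group. The pooled within-group SD of log2 CPM was 0.38 for *Reln*, 0.46 for *Trp73*, 0.39 for *Ndnf*, 0.49 for *Lhx1* and 0.38 for *Lhx5*, and it was 0.26 for *Calb2*, 0.15 for *Dab1*, 0.08 for *Lrp8* and 0.05 for *Vldlr*, against a median of 0.18 over all genes tested. Set beside the 1000 genes nearest in level, *Reln* varied more than 98.8% of them, and *Trp73* and *Ndnf* more than 99.1% each, *Lhx1* more than 93.8%, *Calb2* more than 91.9% and *Lhx5* more than 83.3%. *Vldlr* varied more than only 3.9%, *Lrp8* more than 12.6% and *Dab1* more than 61.8%. Of the reelin system, the ligand thus varied widely from library to library, while its receptors hardly did.

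**Figure D3:**
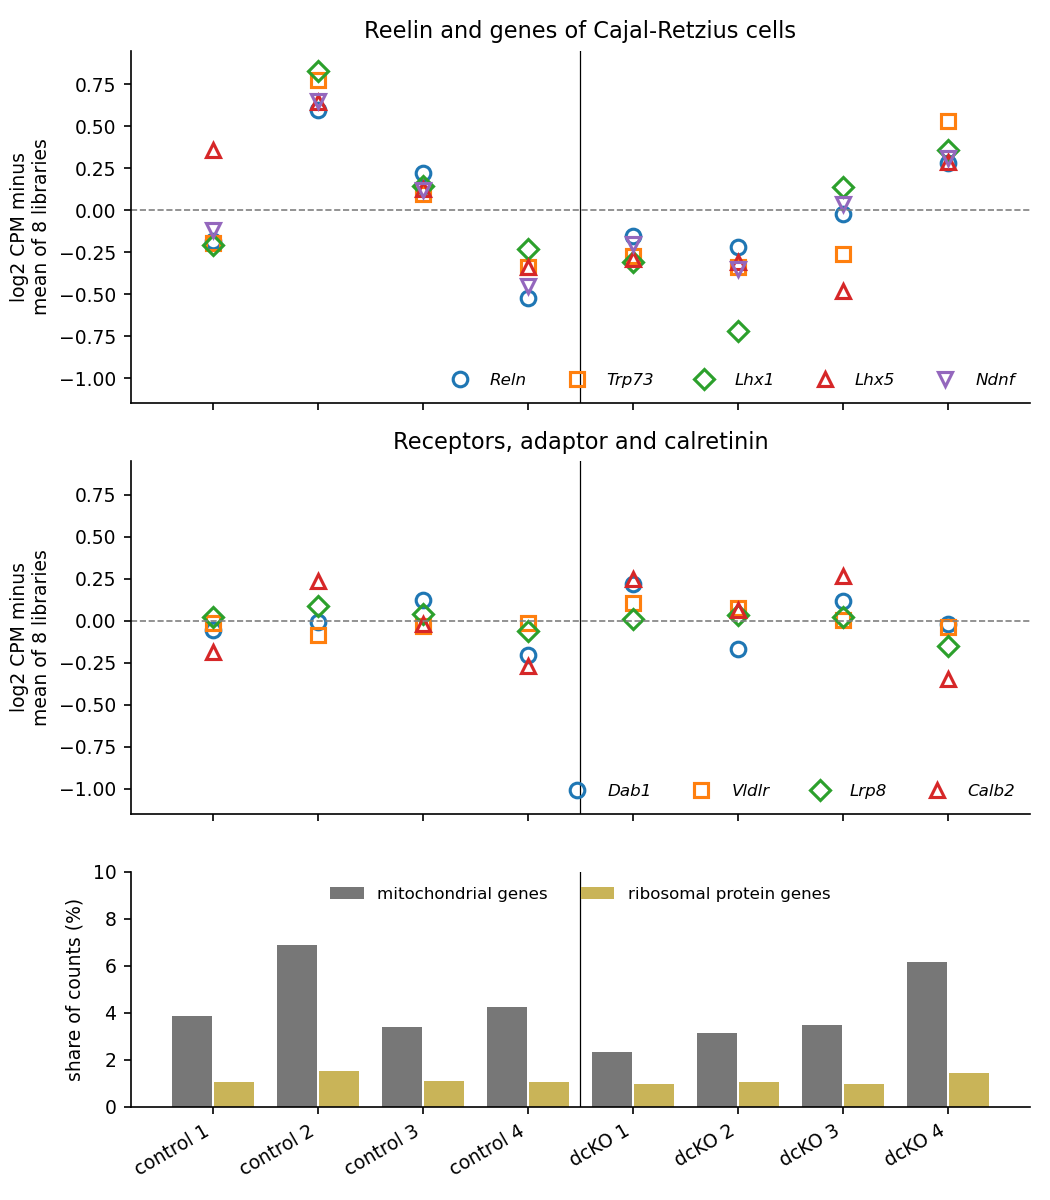
Log2 CPM of each gene minus its mean over the 8 libraries (upper panels, y axis) and the share of counts from mitochondrial and ribosomal protein genes (lower panel, percent), by library. Control 2 and dcKO_Nex-Cre 4 are high for Reln, Trp73, Lhx1, Lhx5 and Ndnf and have the largest mitochondrial shares, 6.87% and 6.15%, whereas Dab1, Vldlr and Lrp8 lie close to 0.

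*Reln* varied closely with *Ndnf* and less closely with the other genes. *Reln* and *Ndnf* differed by a root mean square of 0.08 in centred log2 CPM over the 8 libraries, so that the ratio of their counts stayed between 5.89 and 6.76, with 6.10 ± 0.37 in the control and 6.29 ± 0.36 in the mutants (SD, n = 4 each). *Reln* and *Trp73* differed by 0.17, with 11.1 to 15.5 counts of *Reln* per count of *Trp73*, *Reln* and *Lhx1* by 0.24 and *Reln* and *Lhx5* by 0.27. By the same measure *Reln* stood 0.30 from *Dab1*, 0.32 from *Lrp8*, 0.35 from *Calb2* and 0.37 from *Vldlr*, and a gene that did not vary at all would stand 0.33 from it. *Lhx1* and *Lhx5* were 0.34 apart. The 8 points share the libraries and their composition, and the likeness is given as a description.

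Among all genes that varied at least as much as *Reln* over the 8 libraries, *Ndnf* was the nearest to it, followed by *Akain1* at 0.14 (11.8 counts on average) and *G630030J09Rik* at 0.16. The nearest to *Dab1* were *4833422C13Rik* at 0.07, *2210406O10Rik* at 0.07 and *Aldh1l2* at 0.08. The nearest to *Trp73* were the ribosomal protein genes *Rpl32* at 0.11 and *Rps21* at 0.13 and the pseudogene *Rpl31-ps8* at 0.13, whose reads may belong to its parent gene. The mitochondrial and ribosomal protein shares were largest in control replicate 2 and dcKO_Nex-Cre replicate 4, where *Trp73* was also highest. They did not follow *Trp73* throughout. Control replicate 4 had the next largest mitochondrial share (4.24%) and the lowest *Trp73* (28.0 CPM). Among the controls, the ribosomal protein share did fall in the order of *Trp73*, from 1.52% in replicate 2 to 1.04% in replicate 4. Among the mutants it did not, as replicate 2 had the next largest share (1.04%) and the lowest *Trp73* (28.0 CPM). The part of these shares in the levels was not tested.

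Markers of other cell types were counted in the same libraries. The 8 markers of Cajal-Retzius cells (*Trp73*, *Lhx1*, *Lhx5*, *Ebf3*, *Nhlh2*, *Cacna2d2*, *Barhl2* and *Lhx1os*) were all detected, and their summed level was 114 to 221 CPM in the control and 119 to 176 CPM in the mutants, highest in control replicate 2 and dcKO_Nex-Cre replicate 4. All 8 had a log2 fold change below 0, with a median of -0.31, and none passed the test, while 49.1% of all genes tested were below 0. Without control replicate 2, 5 of the 8 were below 0 and *Trp73*, *Lhx1* and *Cacna2d2* above, with a median of -0.04. Without dcKO_Nex-Cre replicate 4, all 8 were below 0, with a median of -0.49. With both of these libraries left out, 7 were below 0 and 1 above, with a median of -0.22. The 15 markers of interneurons, which also express *Reln*, *Ndnf* and *Calb2*, summed to 876 to 1030.5 CPM in the control and 776 to 927 CPM in the mutants, with 0 called, and were highest in replicate 2 of each group. Among them *Lhx6*, chosen after its values were seen, was at 120.3, 170.2, 139.7 and 96.9 CPM in the control and at 119, 122, 118 and 166 CPM in the mutants, and was thus highest in control replicate 2 and dcKO_Nex-Cre replicate 4, unlike the sum. The part of interneurons in the levels of *Reln* was not tested.

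Summed markers of the other cell types and tissues moved with the groups or with single libraries as follows. Cortical excitatory neurons were at 1528 to 1785 CPM in the control and 1297 to 1481 CPM in the mutants, where *Neurod6* and *Emx1* passed the test as lower. *Neurod6*, from whose locus the Cre is driven, is among the 8 markers in this sum. Its mean was 645 CPM in the control and 387 CPM in the mutants. The median log2 fold change of the 8 was -0.06. Radial glia and astrocytes were at 2360.3 to 2796 against 1927 to 2421 CPM, intermediate progenitors at 51.7 to 69.4 against 56.6 to 88.5 CPM, and oligodendrocyte precursors at 163 to 239.96 against 239 to 289 CPM, with *Cspg4* higher. Microglia were at 86.3 to 101 against 87.7 to 117 CPM, with *C1qb* higher, and endothelium at 73.3 to 110.2 against 98.1 to 125 CPM. None of these sums was highest in both control replicate 2 and dcKO_Nex-Cre replicate 4.

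Markers of tissues next to the cortex spread more widely. Striatal markers were at 94.1 to 143 CPM in the control and 97.6 to 278 CPM in the mutants, highest in replicate 2 of each group, with *Ppp1r1b* higher. Markers of meninges and pericytes, which lie against the Cajal-Retzius cells, were at 89.0 to 114 against 75.7 to 163 CPM, likewise highest in replicate 2 of each group. Choroid plexus markers ranged from 23.6 to 1351 CPM in the control and from 4.49 to 561 CPM in the mutants, markers of thalamus and hypothalamus from 88.3 to 104 against 69.9 to 91.5 CPM, of the olfactory bulb from 32.5 to 42.3 against 32.6 to 52.2 CPM, and of blood from 82.6 to 138 against 81.8 to 185 CPM. In replicate 2 of each group, where the striatal and meningeal sums were highest, *Reln* was the highest of the controls and the lowest of the mutants.

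The wider reelin pathway held 66 genes, from proteases that cleave reelin to effectors of the cytoskeleton, and all were tested. A single gene of the 66, *Mylip*, passed the threshold as lower and none as higher, that is 1.52% of the pathway beside 0.884% of all genes tested. An unadjusted p under 0.05 was reached by 4 lower and 6 higher genes, that is 15.2% of the pathway beside 13.6% of all genes tested. The median log2 fold change was 0.06, with 41 genes above 0 and 25 below.

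*Mylip* (ENSMUSG00000038175) encodes the ubiquitin ligase that marks VLDLR and ApoER2 for degradation. It was at 13.1, 10.2, 10.5 and 11.4 CPM in the control and at 6.81, 8.16, 6.60 and 6.46 CPM in the dcKO_Nex-Cre cortex. Every mutant library lay below every control, as for 4.01% of all genes tested. The log2 fold change came to -0.69 (standard error 0.13, adjusted p = 0.0348 from edgeR). The direction held under all 17 alternatives, from -0.77 to -0.60, but the call under only 7 of them, with an adjusted p of 0.0742 within lane tag 2 and of up to 0.151 when a library was left out (without control replicate 1). *Snx17*, a sorting nexin that binds lipoprotein receptors in endosomes, had a log2 fold change of 0.10 (adjusted p = 0.585 from edgeR).

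By role, the genes of the ligand and its processing lay highest, with 7 of 8 above 0 and a median log2 fold change of 0.23, *Reln* being the exception. *Adamts4* (6.10 to 9.41 CPM, log2 fold change 0.63, adjusted p = 0.252 from edgeR), *Adamts5* (0.42, adjusted p = 0.341) and *Adamts2* (0.34, adjusted p = 0.249), metalloproteases known to cleave reelin, did not pass the test. The same was true of *Thbs1*, a matrix protein that binds the reelin receptors, which was at 40.1 ± 5.54 CPM in the control and 52.97 ± 8.60 CPM in the mutants (SD, n = 4 each, log2 fold change 0.40, adjusted p = 0.204 from edgeR). Of these 4, which were named for an unadjusted p under 0.05, *Thbs1* and *Adamts2* did not overlap between the groups. Over all genes tested, 3.99% had every mutant library above every control.

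The 10 receptors and co-receptors had a median of 0.07 and lay between -0.26 and 0.28, the highest being *Ephb1*, and none reached an unadjusted p of 0.05. *Dab1* and its kinases *Fyn*, *Src*, *Yes1* and *Lyn* were all slightly above 0, between 0.00 and 0.13, and none passed the test. Of the 6 genes of the ligase that degrades phosphorylated DAB1, *Elob* (elongin B) was at 109 ± 9.77 CPM in the control and 85.9 ± 10.8 CPM in the mutants without overlap (SD, n = 4 each, log2 fold change -0.35, adjusted p = 0.148 from edgeR), and the median of the 6 was -0.11. Of all genes tested, 4.01% lay below the controls without overlap.

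Downstream, 34 genes had a median of 0.04, with 18 above 0 and 16 below. *Rap1b*, a small GTPase through which reelin acts on cadherins and integrins, had a log2 fold change of -0.40 (adjusted p = 0.258 from edgeR), and *Limk1*, the kinase that phosphorylates cofilin, of -0.22 (adjusted p = 0.198, no overlap, as for 4.01% of all genes as lower). *Cdk5r1*, the activator p35 of CDK5, had 0.26 (adjusted p = 0.287) and *Pik3ca*, a catalytic subunit of PI3-kinase, 0.18 (adjusted p = 0.357).

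The count of called pathway genes depended on the libraries, and was 0 when any of the other 7 was left out but 10 without dcKO_Nex-Cre replicate 4. These 10 of the 66 are 15.2%, beside 7.73% of all genes in that fit. *Ephb1*, *Adamts4* and *Cdk5r1* were then higher, and *Elob*, *Eloc*, *Rnf7*, *Rap1a*, *Rap1b*, *Mylip* and *Pafah1b3* lower. Within lane tag 2, *Elob*, *Ephb1* and *Rap1b* passed the test, 4.55% of the pathway beside 1.48% of all genes.

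**Figure D4:**
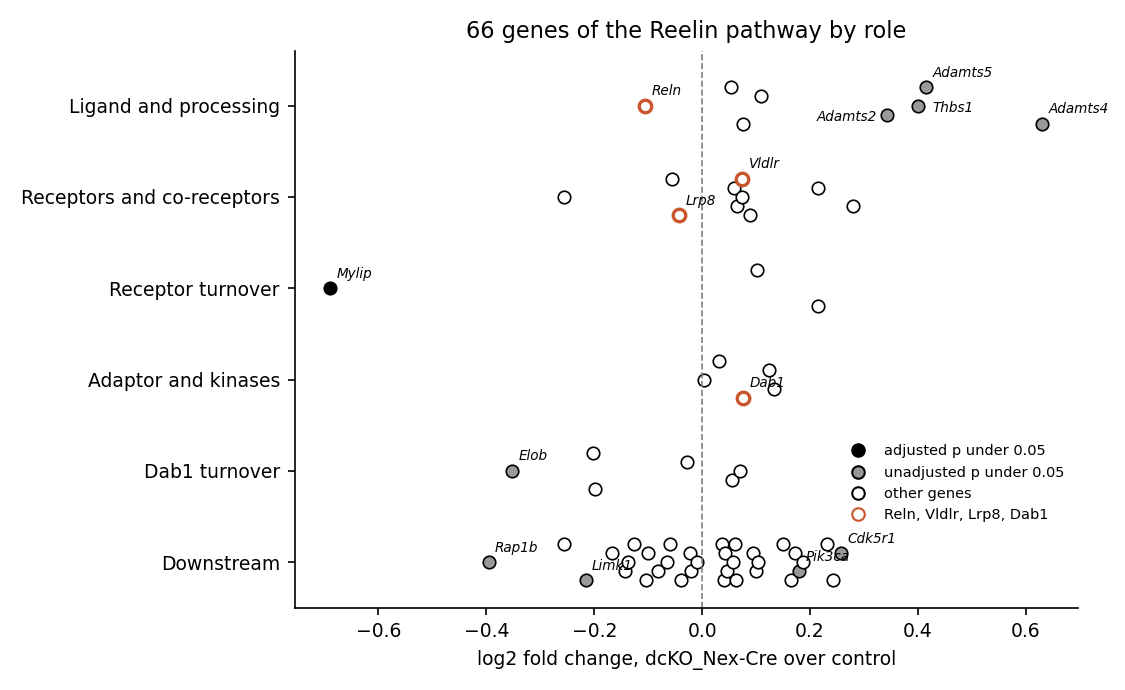
Log2 fold change, dcKO_Nex-Cre over control (x axis), of the 66 genes of the reelin pathway by role (y axis, points spread vertically for legibility). Mylip, at -0.69, is the only filled black point, grey points reached an unadjusted p of 0.05 only, and Reln, Vldlr, Lrp8 and Dab1 (orange outlines) lie between -0.11 and 0.08.

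The Cajal-Retzius list held 21 genes, 6 of them among the 9 described above, and several also mark interneurons, meninges or progenitors. None of the 21 passed the test, and 14 were below 0, with a median log2 fold change of -0.19. An unadjusted p under 0.05 was reached by 3 of them, 14.3% of the list beside 13.6% of all genes tested, and the log2 fold change of these 3 was below 0. *Barhl2*, a homeodomain factor, was at 3.66 ± 0.36 CPM in the control and 2.37 ± 0.72 CPM in the mutants (SD, n = 4 each, log2 fold change -0.64, adjusted p = 0.228 from edgeR). *Mab21l1* was at 5.49 ± 1.21 and 3.35 ± 1.05 CPM (log2 fold change -0.71, adjusted p = 0.252) and *Nr2f2*, the nuclear receptor COUP-TFII of caudal interneurons, at 104 ± 5.84 and 71.3 ± 24.9 CPM (log2 fold change -0.54, adjusted p = 0.294), and neither overlapped between the groups. Every mutant library lay below every control for 4.01% of all genes tested.

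*Barhl2* passed the test within lane tag 2 (log2 fold change -1.03, adjusted p = 0.0470 from edgeR) and without dcKO_Nex-Cre replicate 4 (-0.80, adjusted p = 0.0407). The median of the list was -0.38 within lane tag 2 and 0.10 without control replicate 2. It was -0.15 with control replicate 2 and dcKO_Nex-Cre replicate 4 both left out.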

How the data were processed

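RNA-seq libraries of 4 control and 4 dcKO_Nex-Cre samples of the cortex at P1 were used. For each, the authors deposited a list of Ensembl genes with raw counts that were neither normalized nor filtered. The submitters' processing notes name the build mm10, and the aligner, the counting program, the annotation and the use of strand are not given in the sources used here. Total RNA was made into libraries with an Illumina TruSeq kit that does not mark strand. Gene names, positions and exon lengths came from GENCODE M21 on GRCm38, which matched 48349 of the 48709 identifiers, and promoters from RefSeq on GRCm38.p6.

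Differences were tested with edgeR 4.0.16 in R 4.3.3. Genes were kept by filterByExpr, libraries were scaled by TMM, and the groups were compared with the robust quasi-likelihood F test, two-sided and without covariates, with Benjamini-Hochberg adjustment over the 16287 genes tested and a threshold of 0.05. CPM and RPKM were computed from the counts and the TMM library sizes, log2 CPM with a prior count of 2. An exact two-sided permutation test of mean CPM was added for single genes, over 70 regroupings, which cannot give a p under 0.0286. No pair of libraries was a copy.

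As alternatives, edgeR was run with size factors from DESeq2, and the fit was repeated with DESeq2 1.42.0 (Wald test), with voom in limma 3.58.1, with no filter, at least 10 counts in every library, the replicate number as a block, lane tag 2 only, the lane tag as a covariate, each library left out in turn, and control replicate 2 and dcKO_Nex-Cre replicate 4 left out together. The last was added after seeing the data, as were all alternatives for genes outside the 9 and for the marker signs. Lane tags were read from file names.

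The 9 genes and the gene lists were chosen with earlier results of these data known. Also named were genes of the reelin pathway and Cajal-Retzius lists with an unadjusted p under 0.05, *Smarcc1*, *Smarcc2* and *Neurod6*, and, for *Reln*, *Dab1* and *Trp73*, the 3 genes nearest by root mean square difference of centred log2 CPM among genes at least as variable. Marker genes and further genes that passed the test in an alternative were named after their values were seen. Figures were drawn in Python 3.11.15 with matplotlib 3.10.9. A result withheld from the text is not reported here.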

Additional observations from a re-analysis of the deposited data

Results flagged for a closer look

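A value was marked where 1 library of a group of 4 stood apart from the other 3 by Dixon's test at 95%. Chance marks about 1 in 20 groups, or 3.7 of the 74 tested, and 12 were marked. Some of the genes tested had been chosen because they resemble *Trp73* or were seen to be high in the same libraries, so that their marks are not separate evidence.

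Of the 9 genes, *Trp73* stood apart in dcKO_Nex-Cre replicate 4, at 51.2 CPM against 28.0 to 29.6 CPM in the other mutants. *Lrp8* stood apart in the same library in the other direction, at 273 CPM against 305 to 311 CPM. No control library of the 9 was marked, since control replicate 2 lay high for *Reln*, *Trp73* and *Ndnf* without so large a gap.

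The same library was apart for *Rpl32* (517 against 281 to 318 CPM), *Rps21* (380.3 against 203 to 220.1 CPM), *Cxcr4* (98.8 against 66.5 to 68.6 CPM) and *Lhx6* (166 against 118 to 122 CPM). Control replicate 2 was apart for *Rpl32* (672 against 326 to 357 CPM), *Rps21* (521 against 253 to 273 CPM) and *Cxcr4* (89.1 against 67.0 to 69.2 CPM). *Adamts5* was apart in control replicate 2 as low, at 3.23 CPM against 4.45 to 4.67 CPM. In total, 10 of the 12 marks fell on these libraries. The 2 remaining were *Pik3ca* in control replicate 4 (95.4 against 110.4 to 113 CPM) and *Barhl2* in control replicate 3 (3.13 against 3.78 to 3.89 CPM). The cause was not tested.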

How the results depend on the processing

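No alternative called any of the 9 genes except the one that left out control replicate 2 and dcKO_Nex-Cre replicate 4 together, which called *Calb2* as higher (0.35, 1 gene). The log2 fold changes of *Dab1*, *Vldlr*, *Lhx5* and *Calb2* kept their sign under all 17 alternatives. *Lrp8* changed sign within lane tag 2 (0.0025), with the lane tag as a covariate (0.00022) and with both libraries left out (0.026), and *Reln* with both left out (0.0014). With 1 library left out at a time, the log2 fold changes ranged from -0.26 to 0.12 for *Reln*, -0.43 to 0.10 for *Trp73*, -0.45 to 0.0057 for *Lhx1*, -0.28 to 0.11 for *Ndnf* and -0.069 to 0.0036 for *Lrp8*. The first 4 were above 0 only without control replicate 2, and *Lrp8* only without dcKO_Nex-Cre replicate 4.

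Counts of called genes depended on the processing far more. Against 83 lower and 61 higher genes, DESeq2's Wald test gave 258 and 202, no filter 150 and 109, the lane tag as a covariate 29 and 23, lane tag 2 alone 108 and 140, and both libraries left out 898 and 896. Leaving out 1 library gave 9 to 619 lower and 9 to 659 higher genes, the most without dcKO_Nex-Cre replicate 4 and the fewest without control replicate 1. Called pathway genes were 1 in the fit of all libraries, 2 with DESeq2 (3.03% beside 2.66% of all genes), 3 within lane tag 2, 0 with the lane covariate, 13 with both libraries left out (19.7%, 7 lower and 6 higher, beside 5.50% and 5.49% of all genes) and 0 to 10 with 1 library left out. Called Cajal-Retzius genes were 1 within lane tag 2 (4.76% of the list beside 1.48% of all genes) and 2 with both left out (9.52%, beside 5.50% of all genes as lower and 5.49% as higher). With 1 left out they were 0 to 1. The 1 was without dcKO_Nex-Cre replicate 4 (4.76% beside 7.73% of all genes). The median of that list was -0.38 within lane tag 2, -0.38 with the lane covariate, and -0.29 to 0.10 with 1 library left out. The cause was not tested.

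With the replicate number as a block, 33 lower and 21 higher genes and 0 pathway genes passed, and *Mylip* (adjusted p = 0.116 from edgeR) and *Smarcc1* were no longer called, while *Smarcc2* and *Neurod6* were. Same-numbered libraries did not deviate together throughout (correlations of 0.13, 0.02, 0.13 and -0.14 across genes for replicates 1 to 4). Control replicate 2 went best with dcKO_Nex-Cre replicate 4 (0.37). The labels do not say whether a number marks a litter or day. These correlations cannot decide it, since the composition of the libraries also enters them. *Smarcc2* was called under 17 of 17 alternatives, *Neurod6* under 11 and *Smarcc1* under 8. *Lhx1* and *Lhx5*, at 105 and 108 counts per library, are the genes whose precision depth limits most.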

Other observations

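Some further genes of Cajal-Retzius cells, though not all, followed the libraries that were high for *Reln*. *Nhlh2*, a basic helix-loop-helix factor, was at 29.0, 45.6, 33.8 and 24.8 CPM in control replicates 1 to 4 and at 22.9, 25.2, 27.3 and 37.7 CPM in the mutants. *Ebf3* was at 10.3, 18.8, 10.4 and 8.33 CPM in the control and 7.39, 9.89, 7.43 and 13.1 CPM in the mutants. *Cacna2d2*, a calcium channel subunit, was at 46.3, 74.3, 46.7 and 40.2 CPM and at 49.2, 47.4, 45.3 and 57.5 CPM. All 3 were highest in control replicate 2 and dcKO_Nex-Cre replicate 4, and none passed the test (adjusted p = 0.596, 0.569 and 0.903 from edgeR).

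The Zic genes, which are also active in meninges, followed other libraries. *Zic4* was at 5.40, 27.4, 4.09 and 7.45 CPM in the control and at 4.55, 33.8, 8.13 and 5.67 CPM in the mutants, and *Zic1* at 28.4, 71.0, 20.9 and 25.2 CPM and at 17.1, 69.6, 38.3 and 30.2 CPM. Both were highest in replicate 2 of each group, the libraries with the most meningeal markers. *Reln* was at 706 and 401 CPM in these libraries, the highest of the controls and the lowest of the mutants.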
